A study of Homo sapiens with 12 samples.

Results

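Transcripts of 40 genes of mitosis and of the G2/M transition were described in MDA-MB-231, a human breast cancer cell line. The genes were those on a set list of mitotic cyclins and kinases, spindle checkpoint, kinetochore and cytokinesis genes, and all 40 were found among the 19775 genes with a probe set of their own on the arrays. They were read by 79 probe sets, and 21 of the genes had more than 1. The members were 40 of 19775 genes tested, and each was represented by its brightest probe set unless stated otherwise.

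RNA of 12 cultures labelled as biological replicates was hybridised to whole-genome Affymetrix arrays, in 3 groups of 4 arrays lettered A to D. Sharp1 cells overexpressed Sharp1, a transcriptional repressor encoded by BHLHE41. shHIF cells carried retroviral hairpins against HIF1a and HIF2a, the oxygen-regulated subunits encoded by HIF1A and EPAS1, and shGFP cells carried a retroviral hairpin against GFP and served as control. All cells shared the MDA-MB-231 background, a DMEM/F12 medium with serum and no treatment before harvest. The labels and protocols do not name the vector of the Sharp1 cells or say whether a group was a pool or a clone. They do not say either that the 4 replicates came from separate infections, so the spread behind each p-value is that of these arrays and may be technical. Values are log2 expression after RMA, so a difference of 1 is a change of 2-fold, and a gene was called at a limma adjusted p under 0.05 over all genes.

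BHLHE41 had 4 probe sets that did not move together. On 1 of them the 4 Sharp1 arrays read 9.56, 8.87, 9.30 and 9.22 and the shGFP arrays 3.94, 3.95, 3.82 and 3.83. EPAS1 read 6.40, 6.83, 6.77 and 6.72 on the shHIF arrays against 9.49, 9.55, 9.48 and 9.60 on the shGFP arrays, and HIF1A read 11.99, 12.10, 12.08 and 12.04 against 12.80, 12.80, 12.79 and 12.75. A second BHLHE41 probe set was higher in Sharp1 than in shGFP cells by 1.59, another was lower by 2.06 and the last differed by -0.13. EPAS1 was also lower in Sharp1 than in shGFP cells, by 0.71. Of 4 mesenchymal markers known from this line, vimentin (VIM) averaged 14.55, 14.22 and 14.48 in Sharp1, shHIF and shGFP cells, whereas SPARC averaged at most 3.98 in any group. Of 12 luminal markers, 8 (Sharp1) or 9 (shHIF and shGFP) were above the median probe set of 5.41, led by the keratin KRT18 at 13.16, 13.04 and 13.12 in Sharp1, shHIF and shGFP cells, while the epithelial cadherin CDH1 averaged at most 4.06. Of 8 measured leukocyte markers, 2 were above that median in Sharp1 and 4 each in shHIF and shGFP cells. LAPTM5 averaged 6.86, 8.87 and 9.04 and HLA-DRA 5.01, 8.14 and 6.80 in Sharp1, shHIF and shGFP cells. PTPRC, which defines leukocytes, averaged 4.45, 4.38 and 4.01, under that median in every group and highest in Sharp1 cells. Luminal and leukocyte marker lists differed between the groups, with array means of 7.74 to 7.75 (Sharp1), 7.93 to 8.06 (shHIF) and 8.14 to 8.26 (shGFP) for 12 luminal markers and of 5.07 to 5.21 (Sharp1) and 5.89 to 6.06 (shHIF), with up to 6.19 in shGFP, for 8 of 10 leukocyte markers. The luminal list did not move as a whole in Sharp1 against shGFP cells, where 6 markers were higher and 6 lower, at a median of 0.0008. AGR2 averaged 6.39 in Sharp1 and 9.40 in shGFP cells and TFF1 4.55 and 7.16. KRT19 went the other way, at 12.11 and 11.73, as did XBP1 at 9.46 and 8.93. The part of the luminal and leukocyte markers in the results below was not tested.

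Entry into mitosis is driven by CDK1 bound to cyclins A and B. CDC25 phosphatases activate the kinase, and Polo and Aurora kinases then build the spindle. The spindle checkpoint holds the anaphase-promoting complex in check until every kinetochore is attached, after which securin and cyclin B are degraded, separase opens the cohesin rings and the cell divides. Many of these genes are transcribed in late S phase, G2 and mitosis, and their transcripts follow the share of cells in those phases, so that in bulk RNA a smaller share of cells in G2/M and less RNA per cell cannot be told apart.

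The mitotic genes moved little. No member changed by 1.5-fold or more on its brightest probe set in any of the 3 comparisons, where 4.72% (Sharp1 against shGFP), 3.39% (shHIF against shGFP) and 7.87% (Sharp1 against shHIF) of all genes were called with such a change. CDC25B, the phosphatase that starts CDK1 activation, fell most of the members in Sharp1 cells (1.27-fold), and ESPL1, which encodes separase, rose most in shHIF cells (1.34-fold). In Sharp1 against shGFP cells, 4 members rose, 12 fell and 24 were not called, at a median of -0.06 over the 40 against 0.00 over all genes. That is 40% of the members, where 27.2% of all 19775 genes were called, 15.3% higher and 11.8% lower. Readings were bright, with means of 6.76 to 13.24 over the 12 arrays, and bright genes were called more often: of the 9416 genes within that range, 46.5% were called, 26.8% higher and 19.7% lower. The share of members called thus lay between the background of all genes and that of equally bright ones.

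In shHIF against shGFP cells, 10 members rose, 3 fell and 27 were not called, or 32.5% of the members. The falls include CCNA2 by its brighter probe set, although its other probe set was called higher. The background was 30.8% of all genes (17.6% higher, 13.2% lower) and 51% of the genes in the same range of readings. The median was 0.05 over the members and 0.05 over all genes. Called members changed by a median size of 0.16 in Sharp1 and 0.24 in shHIF cells, against 0.31 and 0.30 over all called genes. The 2 comparisons share the shGFP arrays. Of the members, 12 of 40 had a higher mean in Sharp1 than in shGFP cells, and 24 of 40 had a higher mean in shHIF than in shGFP cells.

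The count of falls in Sharp1 cells depended on scaling: with each array centred on its median, 5 members were higher and 6 lower, and with quantile normalization 4 and 15. In shHIF cells both scalings gave 10 and 3. Without the trend of variance on mean reading in the fit, 0 members were higher and 5 lower in Sharp1 than in shGFP cells. Actin 3′ minus 5′ signal averaged 0.67 ± 0.13 in Sharp1, 0.68 ± 0.07 in shGFP and 0.84 ± 0.15 in shHIF cells (SD, n = 4). Ribosomal RNA control signal was 10.72 on Sharp1 B and 11.34 to 11.61 on the other arrays. Spike-in signal was 9.99 on shHIF A and 10.02 on shHIF D and 10.43 to 10.57 on the other arrays, and without those 2 arrays 10 members were higher and 4 lower in shHIF than in shGFP cells. The part of array quality in the other results was not tested.

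**Figure D1:**
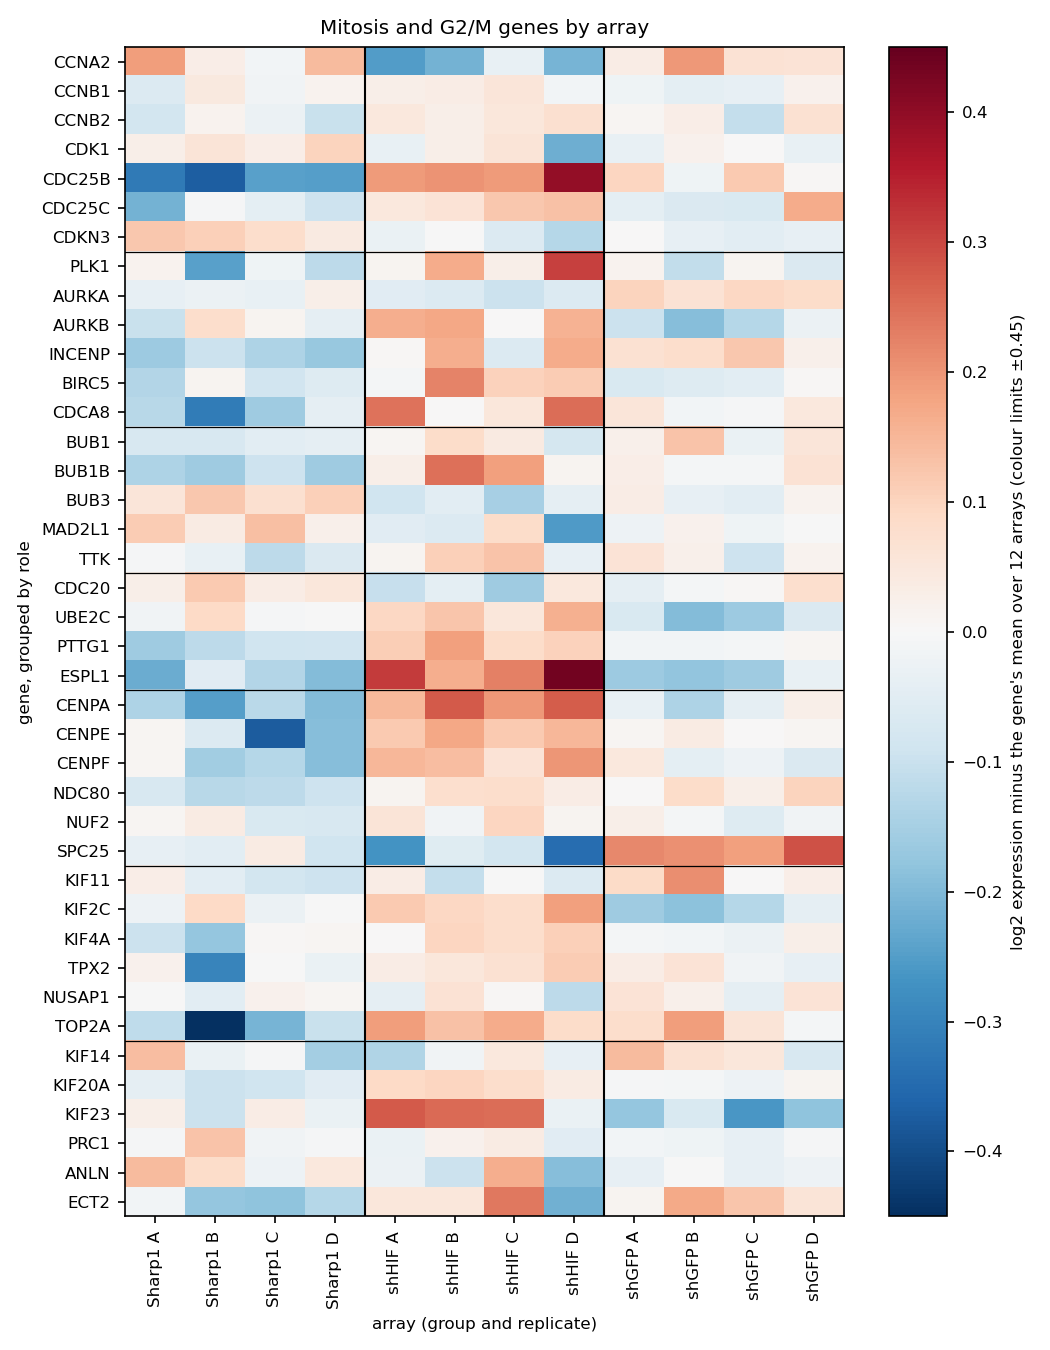
Log2 expression of each of the 40 genes (rows, in role groups separated by lines) on each of the 12 arrays (columns: Sharp1, shHIF, shGFP), as the difference from the gene's mean over the arrays, with red above and blue below it. CDC25B is blue on the 4 Sharp1 arrays and red on the 4 shHIF arrays, SPC25 is red on the 4 shGFP arrays, and ESPL1 is red on the 4 shHIF arrays.

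The promoters of the members shared sequence elements known from G2/M genes. Promoter windows of 300 bases, 250 before and 50 after the start, were taken from RefSeq on GRCh38.p14 for 34 of the 40 genes (44 windows). The letters CCAAT, the box bound by NF-Y, were searched on both strands (ATTGG on the other), as were the letters TTTGAA of the cell cycle genes homology region (TTCAAA on the other strand), at which MuvB complexes bind. CCAAT stood in 75% of the member windows and in 34.61% of the 35116 windows of the table, and TTTGAA in 63.64% against 15.16%. Both stood together in 52.27% of member windows and 5.9% of all. At least 2 CCAAT boxes stood in 40.91% against 10.75%. By gene, 28 of 34 had CCAAT and 25 of 34 had TTTGAA in at least 1 window. TTTGAA was present in 4 of 8 genes with a window that rose in shHIF cells and in 20 of 24 that were not called there. It was present in 8 of 11 that fell in Sharp1 cells and in 16 of 21 that were not called there. For CCAAT the counts were 7 of 8, 19 of 24, 8 of 11 and 19 of 21 in the same order. A match of letters is a description and not a bound site.

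The 250 bases before the start are shown for the leading risers in shHIF cells (ESPL1, KIF23 and CENPA). They are also shown for CCNA2, whose probe sets disagreed. Of the genes that fell in Sharp1 cells, TOP2A, CDCA8 and SPC25 are shown, the last of which also fell in shHIF cells. CDC25B, which fell most in Sharp1 cells, is not shown. None of its windows held TTTGAA, and CCAAT stood in some of them only. Capitals mark CCAAT or ATTGG and TTTGAA or TTCAAA. In CDCA8, a TTTGAA and an ATTGG share 1 base near the start. Coordinates are GRCh38.p14: ESPL1 chr12:53268049-53268298 (plus strand), KIF23 chr15:69414099-69414348 (plus strand), CENPA chr2:26785806-26786055 (plus strand), TOP2A chr17:40417897-40418146 (minus strand), SPC25 chr2:168890431-168890680 (minus strand), CDCA8 chr1:37692266-37692515 (plus strand), CCNA2 chr4:121823884-121824133 (minus strand).
ESPL1: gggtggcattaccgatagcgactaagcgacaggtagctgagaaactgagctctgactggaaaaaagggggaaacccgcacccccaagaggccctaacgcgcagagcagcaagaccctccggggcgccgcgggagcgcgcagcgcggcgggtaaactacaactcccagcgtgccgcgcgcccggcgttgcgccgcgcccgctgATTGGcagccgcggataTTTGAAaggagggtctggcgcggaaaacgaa
KIF23: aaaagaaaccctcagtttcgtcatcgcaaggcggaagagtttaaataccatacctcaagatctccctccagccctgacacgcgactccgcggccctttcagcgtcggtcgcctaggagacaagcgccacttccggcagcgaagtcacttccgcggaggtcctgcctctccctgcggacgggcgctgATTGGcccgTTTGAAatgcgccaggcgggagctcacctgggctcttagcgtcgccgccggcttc
CENPA: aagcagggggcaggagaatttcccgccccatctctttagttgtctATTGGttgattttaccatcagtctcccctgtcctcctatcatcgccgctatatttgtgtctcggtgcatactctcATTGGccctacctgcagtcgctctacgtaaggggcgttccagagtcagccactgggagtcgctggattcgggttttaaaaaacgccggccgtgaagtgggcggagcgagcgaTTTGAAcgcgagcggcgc
TOP2A: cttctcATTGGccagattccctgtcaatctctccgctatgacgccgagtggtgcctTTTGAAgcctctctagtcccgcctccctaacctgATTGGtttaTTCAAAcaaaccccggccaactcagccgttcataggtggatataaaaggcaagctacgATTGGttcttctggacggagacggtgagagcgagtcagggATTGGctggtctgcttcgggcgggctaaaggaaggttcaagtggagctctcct
SPC25: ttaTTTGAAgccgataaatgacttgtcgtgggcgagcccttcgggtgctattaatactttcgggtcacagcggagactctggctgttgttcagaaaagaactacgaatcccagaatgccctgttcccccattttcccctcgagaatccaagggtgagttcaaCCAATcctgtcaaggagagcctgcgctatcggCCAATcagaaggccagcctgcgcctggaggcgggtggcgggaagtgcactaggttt
CDCA8: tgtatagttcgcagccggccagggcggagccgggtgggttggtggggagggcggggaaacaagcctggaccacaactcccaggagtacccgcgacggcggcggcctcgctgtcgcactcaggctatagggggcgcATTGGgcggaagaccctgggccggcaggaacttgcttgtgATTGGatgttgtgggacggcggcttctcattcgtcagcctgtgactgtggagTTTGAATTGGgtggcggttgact
CCNA2: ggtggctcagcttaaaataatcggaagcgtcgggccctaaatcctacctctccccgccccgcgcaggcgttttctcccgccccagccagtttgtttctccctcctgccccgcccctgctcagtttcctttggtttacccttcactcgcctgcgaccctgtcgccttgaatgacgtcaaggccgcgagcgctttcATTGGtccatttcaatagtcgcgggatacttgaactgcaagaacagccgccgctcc
ESPL1 and KIF23 each carry an ATTGG followed closely by a TTTGAA, CENPA carries its TTTGAA from 18 bases before the start, and TOP2A carries 4 ATTGG boxes. SPC25 has another TTTGAA that opens 3 bases before the start and runs past it, so it is not marked in the line above. CCNA2 showed 1 ATTGG and neither form of TTTGAA in this window. Only these exact letters were searched, so other forms of the element would be missed.

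The cyclins and CDK1 form the kinase that drives mitosis. CCNB1, cyclin B1, read 12.29, 12.39, 12.33 and 12.37 in Sharp1 cells, 12.38, 12.38, 12.41 and 12.34 in shHIF cells and 12.33, 12.31, 12.31 and 12.37 in shGFP cells. Arrays of the 3 groups overlapped, and neither difference from shGFP was called (0.02, 95% interval -0.05 to 0.08, in Sharp1 and 0.05, -0.02 to 0.11, in shHIF cells). CCNB2, cyclin B2, differed by -0.05 and 0.05 and CDK1 by 0.06 and -0.03 in Sharp1 and shHIF cells, none of them called. A second bright CDK1 probe set was called higher in shHIF cells (0.18), where 22.2% of all probe sets were called, so CDK1 was not uniform across its 4 probe sets.

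CDC25B, which activates CDK1 at centrosomes, differed more between Sharp1 and shHIF cells than any other member. It read 10.42, 10.37, 10.49 and 10.49 in Sharp1 cells, 10.93, 10.94, 10.93 and 11.13 in shHIF cells and 10.83, 10.72, 10.85 and 10.74 in shGFP cells. All 4 Sharp1 arrays lay below, and all 4 shHIF arrays above, the shGFP arrays. CDC25B was lower by 0.35 in Sharp1 cells (SE 0.05, limma adjusted p = 3.32e-06) and rose by 0.19 in shHIF cells (SE 0.05, adjusted p = 0.00278), and both calls held in all 23 alternatives. CDC25C, the related phosphatase acting at mitotic entry, was not called on its brightest probe set (-0.08 in Sharp1 and 0.09 in shHIF cells). Its 2 dimmer probe sets differed by -0.21 and -0.33 in Sharp1 cells, the last of them called lower at a reading under the median probe set, and by -0.24 and -0.27 in shHIF cells, not called. The mean of the 3 was called lower in Sharp1 cells (-0.21, adjusted p = 0.00851), but it includes the probe set under the median and is not taken as a fall of CDC25C.

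CDKN3, a phosphatase that inactivates CDKs, read 12.31, 12.29, 12.27 and 12.22 in Sharp1 cells, 12.16, 12.18, 12.12 and 12.06 in shHIF cells and 12.19, 12.15, 12.14 and 12.15 in shGFP cells. The 4 Sharp1 arrays were above the shGFP arrays, a rise of 0.12 (SE 0.03, limma adjusted p = 0.00966), with -0.03 in shHIF cells, not called. A second CDKN3 probe set also rose in Sharp1 cells, by 0.17.

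For cyclin A2, CCNA2, the 2 probe sets gave opposite answers in shHIF cells. The brighter one read 10.99, 10.84, 10.79 and 10.95 in Sharp1 cells, 10.56, 10.59, 10.77 and 10.60 in shHIF cells and 10.84, 11.00, 10.87 and 10.87 in shGFP cells, with shHIF wholly below shGFP, and fell in shHIF cells by 0.26 (limma adjusted p = 0.000244). The other read 10.85, 10.70, 10.64 and 11.02 in shHIF cells and 10.40, 10.29, 10.34 and 10.30 in shGFP cells, wholly higher in shHIF, and rose by 0.47 (adjusted p over all probe sets = 1.81e-06). Their mean differed by 0.10 (adjusted p = 0.0688), so no direction is given for CCNA2 in shHIF cells, and in Sharp1 cells neither was called (0.00 and -0.06). Actin 3′ minus 5′ signal was 0.90 to 0.94 on shHIF A, B and C and 0.62 on shHIF D, against 0.59 to 0.74 in shGFP, and its part in the disagreement was not tested.

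**Figure D2:**
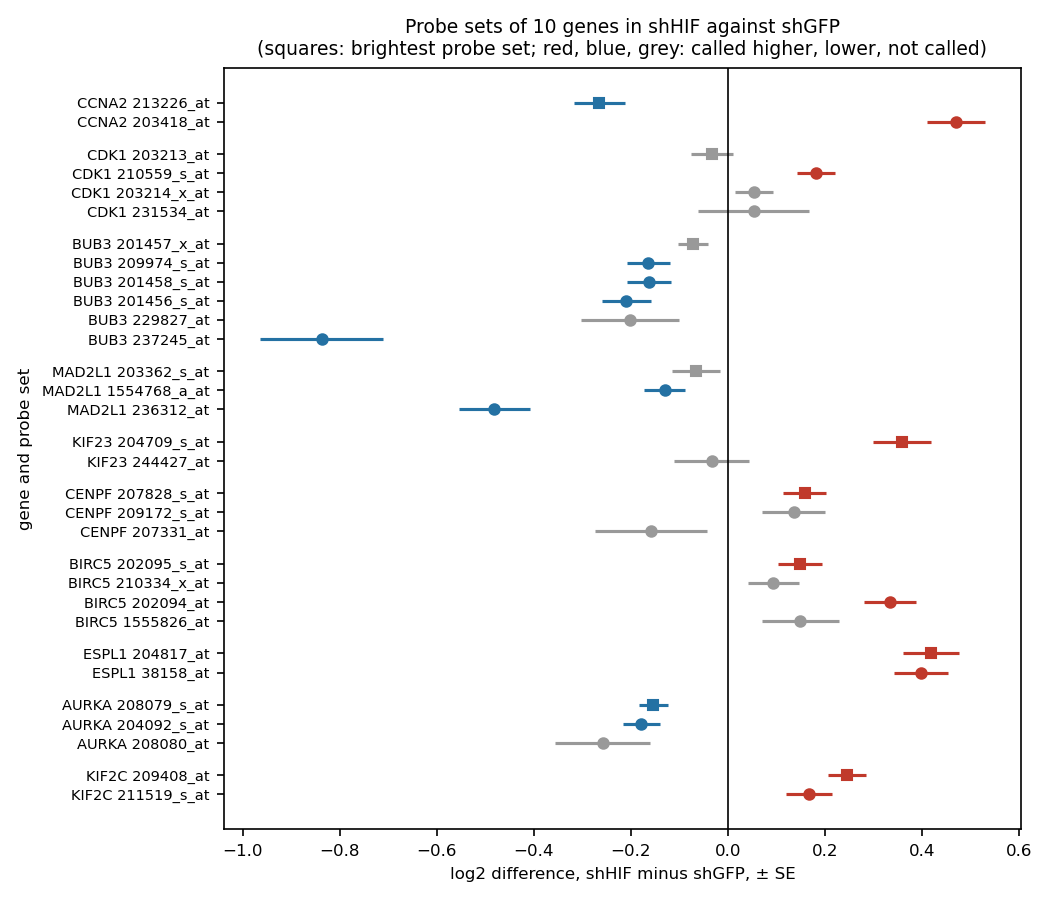
Log2 difference of shHIF minus shGFP (horizontal axis, ± SE from limma, n = 4 per group) for every probe set of 10 genes, with squares for the brightest and colours for the calls. Both probe sets of ESPL1 and KIF2C were called higher, while the 2 of CCNA2 were called in opposite directions and 4 of 6 of BUB3 were called lower.

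The mitotic kinases and the chromosomal passenger complex split between the comparisons. AURKA, the Aurora kinase of centrosomes and spindle poles, read 12.14, 12.15, 12.14 and 12.20 in Sharp1 cells, 12.13, 12.12, 12.08 and 12.11 in shHIF cells and 12.28, 12.24, 12.27 and 12.26 in shGFP cells. The shGFP arrays were above every other array. AURKA fell by 0.10 in Sharp1 cells (SE 0.03, limma adjusted p = 0.0118) and by 0.15 in shHIF cells (SE 0.03, adjusted p = 0.000313). The fall in Sharp1 cells was lost in 4 of 23 alternatives, among them centring on the array median. AURKB, the Aurora kinase of the passenger complex, went the other way in shHIF cells: it read 10.54, 10.54, 10.37 and 10.53 in shHIF cells and 10.28, 10.18, 10.24 and 10.35 in shGFP cells and rose by 0.23 (SE 0.05, adjusted p = 0.000506), with no overlap between the groups. In Sharp1 cells it differed by 0.10 and was not called.

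Of the partners of AURKB, survivin (BIRC5) rose by 0.15 in shHIF cells (limma adjusted p = 0.0106), a call lost without shHIF B (adjusted p = 0.0578). A second BIRC5 probe set rose by 0.33. Borealin (CDCA8), which targets the complex to centromeres, read 10.66, 10.47, 10.62 and 10.74 in Sharp1 cells, 11.03, 10.79, 10.83 and 11.04 in shHIF cells and 10.84, 10.77, 10.78 and 10.83 in shGFP cells, with Sharp1 separate from and below shGFP, and in Sharp1 cells it fell by 0.18 (SE 0.06, adjusted p = 0.0163). That call was lost without Sharp1 B (adjusted p = 0.0883). INCENP, the scaffold of the complex, read 6.60, 6.67, 6.62 and 6.59 in Sharp1 cells and 6.83, 6.84, 6.88 and 6.78 in shGFP cells and fell by 0.21 in Sharp1 cells (adjusted p = 0.0343). The INCENP groups did not overlap, but the call was lost in 8 alternatives, 6 of which left out 1 array (shGFP A, B or C, or Sharp1 A, C or D), at adjusted p of 0.0618 to 0.0872. PLK1, the Polo kinase, was not called in either (-0.05, 95% interval -0.21 to 0.10, and 0.16, 0.01 to 0.32).

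In the spindle checkpoint, BUB1B, which encodes the APC/C inhibitor BUBR1, read 10.76, 10.74, 10.81 and 10.74 in Sharp1 cells, 10.93, 11.15, 11.09 and 10.92 in shHIF cells and 10.93, 10.89, 10.90 and 10.97 in shGFP cells. Sharp1 arrays lay below all shGFP arrays, a fall of 0.16 (SE 0.05, limma adjusted p = 0.0111), and the difference of 0.10 in shHIF cells was not called. With centred arrays the fall had an adjusted p of 0.0505, and without the trend one of 0.0628. BUB3, which anchors BUB proteins at kinetochores, read 13.08, 13.15, 13.10 and 13.13 in Sharp1 cells, 12.94, 12.98, 12.88 and 12.99 in shHIF cells and 13.06, 12.99, 12.98 and 13.04 in shGFP cells. Sharp1 arrays lay above the shGFP arrays. BUB3 rose by 0.10 in Sharp1 cells (adjusted p = 0.0219), a call lost without shGFP B or C or Sharp1 B or D (adjusted p of 0.0644 to 0.0894).

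The brightest BUB3 probe set is of the _x_at kind, which can bind related transcripts. Of its 6 probe sets, 3 were called higher in Sharp1 cells and 4 lower in shHIF cells, the largest of these a dim one at -0.84, while the brightest was not called in shHIF (-0.07). MAD2L1, the checkpoint protein that captures CDC20, was not called on its brightest probe set (0.08 and -0.07 in Sharp1 and shHIF), although its other 2 probe sets were called lower in shHIF cells (-0.13 and -0.48). The checkpoint kinases BUB1 (-0.10 and -0.03) and TTK (-0.06 and 0.05) were not called in either comparison.

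At the step from metaphase to anaphase, 3 of 4 genes rose in shHIF cells, where 17.6% of all genes and 27.5% of those in the same range of readings rose. UBE2C, the ubiquitin-conjugating enzyme of the anaphase-promoting complex, read 12.95, 13.06, 12.96 and 12.96 in Sharp1 cells, 13.06, 13.09, 13.02 and 13.13 in shHIF cells and 12.90, 12.77, 12.80 and 12.90 in shGFP cells. Both other groups lay wholly above shGFP, with rises of 0.14 in Sharp1 (SE 0.04, limma adjusted p = 0.00388) and 0.23 in shHIF cells (SE 0.04, adjusted p = 1.51e-05). ESPL1, whose product separase cleaves cohesin, read 9.67, 9.85, 9.77 and 9.70 in Sharp1 cells, 10.21, 10.06, 10.12 and 10.33 in shHIF cells and 9.73, 9.72, 9.74 and 9.87 in shGFP cells. Every shHIF array was above every other array, a rise of 0.42 (SE 0.05, adjusted p = 1.46e-06), which held in all 23 alternatives and was 0.40 on the second probe set. In Sharp1 cells ESPL1 differed by -0.02 (95% interval -0.13 to 0.10).

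PTTG1, securin, which holds separase inactive, read 13.08, 13.12, 13.14 and 13.15 in Sharp1 cells, 13.35, 13.42, 13.32 and 13.34 in shHIF cells and 13.22, 13.22, 13.23 and 13.24 in shGFP cells. The 3 groups were fully separate, with Sharp1 lowest and shHIF highest. PTTG1 fell by 0.11 in Sharp1 cells (SE 0.03, limma adjusted p = 0.00686) and rose by 0.13 in shHIF cells (SE 0.03, adjusted p = 0.00165). With centred arrays the fall had an adjusted p of 0.0596. Its single probe set is of the _x_at kind and securin has closely related copies in the genome, so the reading may include them. CDC20, the activator of the complex in mitosis, was not called (0.05 and -0.07).

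**Figure D3:**
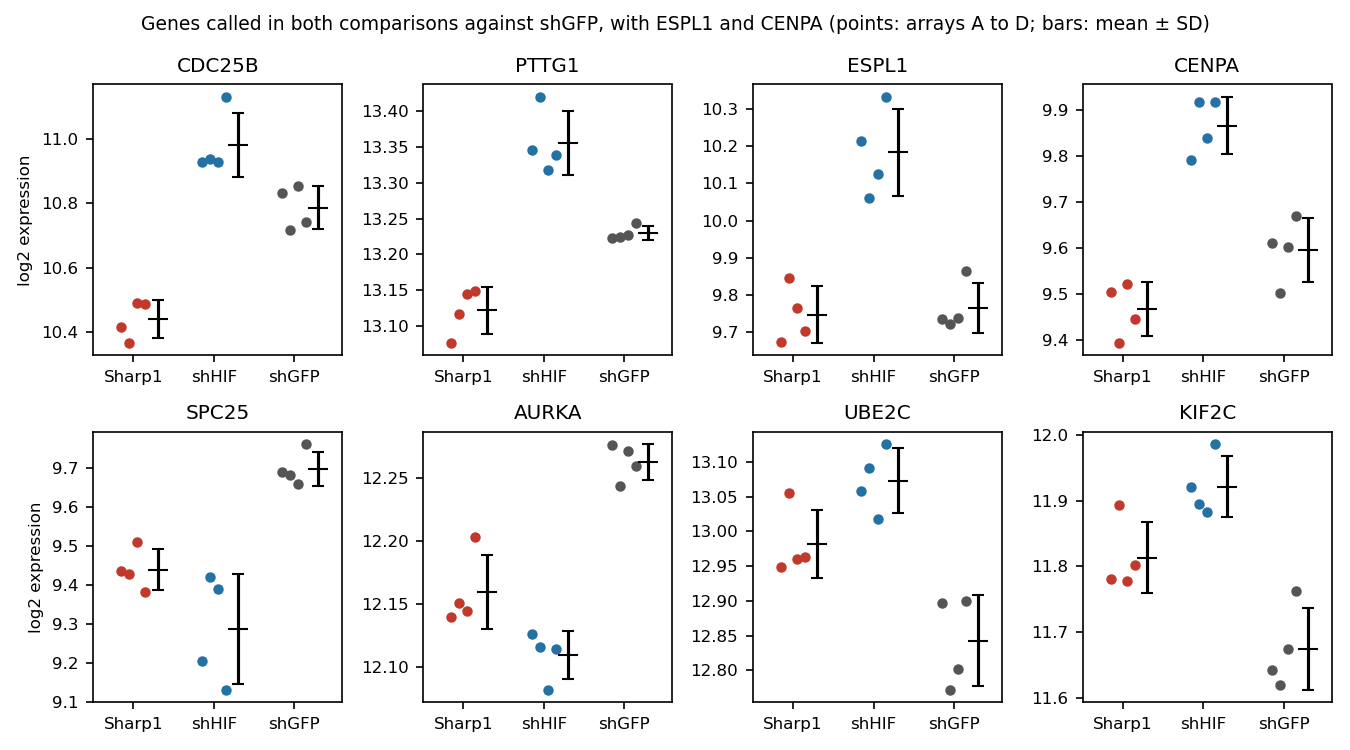
Log2 expression (vertical axis) of 8 genes on each array of Sharp1, shHIF and shGFP cells, with the group mean ± SD (n = 4) beside the points. CDC25B and PTTG1 are lowest in Sharp1 and highest in shHIF, SPC25 and AURKA are highest in shGFP, UBE2C and KIF2C are lowest in shGFP, and ESPL1 and CENPA are highest in shHIF.

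Of 6 centromere and kinetochore genes, 3 fell and none rose in Sharp1 cells, a called share of 50%. Of all genes 27.2% were called there, 11.8% lower, and of genes in the same range of readings 46.5% were called, 19.7% lower. SPC25, a subunit of the NDC80 complex that grips microtubules, read 9.44, 9.43, 9.51 and 9.38 in Sharp1 cells, 9.21, 9.42, 9.39 and 9.13 in shHIF cells and 9.69, 9.68, 9.66 and 9.76 in shGFP cells. No array of either other group reached the shGFP range. SPC25 fell by 0.26 in Sharp1 (SE 0.06, limma adjusted p = 0.000978) and by 0.41 in shHIF cells (SE 0.06, adjusted p = 3.27e-06), both in all 23 alternatives. NDC80 itself read 10.83, 10.78, 10.78 and 10.81 in Sharp1 cells and 10.90, 10.98, 10.93 and 11.00 in shGFP cells with no overlap, and fell by 0.15 in Sharp1 cells (adjusted p = 0.0021), with 0.00 in shHIF cells (95% interval -0.08 to 0.07). NUF2, its partner in the complex, was not called (-0.01 and 0.05).

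CENPA, the histone variant that marks centromeres, read 9.50, 9.39, 9.52 and 9.45 in Sharp1 cells, 9.79, 9.92, 9.84 and 9.92 in shHIF cells and 9.61, 9.50, 9.60 and 9.67 in shGFP cells. The shHIF arrays stood above all others, a rise of 0.27 (SE 0.05, limma adjusted p = 0.000101), on a single probe set of the _x_at kind. In Sharp1 cells it differed by -0.13 (adjusted p = 0.0517). CENPE, a kinetochore motor, read 10.12, 10.05, 9.74 and 9.92 in Sharp1 cells, 10.23, 10.29, 10.23 and 10.27 in shHIF cells and 10.12, 10.15, 10.12 and 10.12 in shGFP cells. The highest Sharp1 array overlapped the shGFP range, and the fall of 0.17 (adjusted p = 0.0294) was lost without any 1 of the 4 shGFP arrays or without Sharp1 C or D. CENPF, a large kinetochore protein, read 11.35, 11.18, 11.21 and 11.15 in Sharp1 cells, 11.49, 11.48, 11.40 and 11.54 in shHIF cells and 11.39, 11.30, 11.32 and 11.27 in shGFP cells. It rose by 0.16 in shHIF cells (adjusted p = 0.00585), but the call was lost without shHIF A and D (adjusted p = 0.0752). Its second probe set differed by 0.14 and its dimmest, under the median probe set of 5.41, by -0.16, neither of them called.

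Among spindle and chromosome genes, KIF2C, a kinesin that depolymerises microtubules at centromeres, read 11.78, 11.89, 11.78 and 11.80 in Sharp1 cells, 11.92, 11.89, 11.88 and 11.99 in shHIF cells and 11.64, 11.62, 11.67 and 11.76 in shGFP cells. It rose by 0.14 in Sharp1 (SE 0.04, limma adjusted p = 0.00736) and by 0.25 in shHIF cells (SE 0.04, adjusted p = 1.64e-05), and neither group overlapped shGFP. The second KIF2C probe set differed by 0.02 in Sharp1 cells and was not called, and the mean of both gave an adjusted p of 0.141, so the rise in Sharp1 rests on the brighter one. TOP2A, the topoisomerase that disentangles sister chromatids, read 12.38, 12.03, 12.28 and 12.39 in Sharp1 cells, 12.68, 12.62, 12.66 and 12.57 in shHIF cells and 12.57, 12.68, 12.55 and 12.48 in shGFP cells. All Sharp1 arrays were lower, Sharp1 B most of all, and TOP2A fell by 0.30 (SE 0.06, adjusted p = 0.000161). On the second bright probe set of TOP2A the difference was -0.09 and was not called, and in shHIF cells the brightest differed by 0.06. KIF11, the kinesin that pushes spindle poles apart, fell by 0.13 in Sharp1 cells at adjusted p = 0.043, which was lost without shGFP A or B or Sharp1 B, C or D. KIF4A, TPX2 and NUSAP1 were not called against shGFP, at -0.09 to 0.08. KIF4A has a near-identical copy, KIF4B, which its probe set may also read. A second NUSAP1 probe set fell by 0.40 in Sharp1 cells, where the brightest differed by -0.03.

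Of the cytokinesis genes, KIF23, a motor of the central spindle, read 10.30, 10.18, 10.31 and 10.25 in Sharp1 cells, 10.55, 10.53, 10.53 and 10.25 in shHIF cells and 10.10, 10.21, 10.02 and 10.10 in shGFP cells. All shHIF arrays were above the shGFP arrays, shHIF D least, and KIF23 rose by 0.36 (SE 0.06, limma adjusted p = 2.42e-05). Its dimmer probe set differed by -0.03 and was not called. In Sharp1 cells KIF23 differed by 0.15 and was not called (limma adjusted p = 0.0517), though 10 of 23 alternatives called it higher. The dimmer probe set differed there by 0.18, not called. ECT2, the exchange factor that activates RhoA at the cleavage furrow, read 11.14, 10.98, 10.97 and 11.03 in Sharp1 cells and 11.17, 11.33, 11.28 and 11.21 in shGFP cells. The Sharp1 arrays were all lower. The difference was -0.22 (SE 0.06, limma adjusted p = 0.0111), and a second probe set fell by 0.47. The last one, at means of 3.84 in Sharp1 and 4.22 in shGFP cells, lay under the median probe set and is not counted as a reading of ECT2. The motors KIF14 and KIF20A, the microtubule bundler PRC1 and the scaffold ANLN were not called against shGFP, at -0.08 to 0.09.

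**Figure D4:**
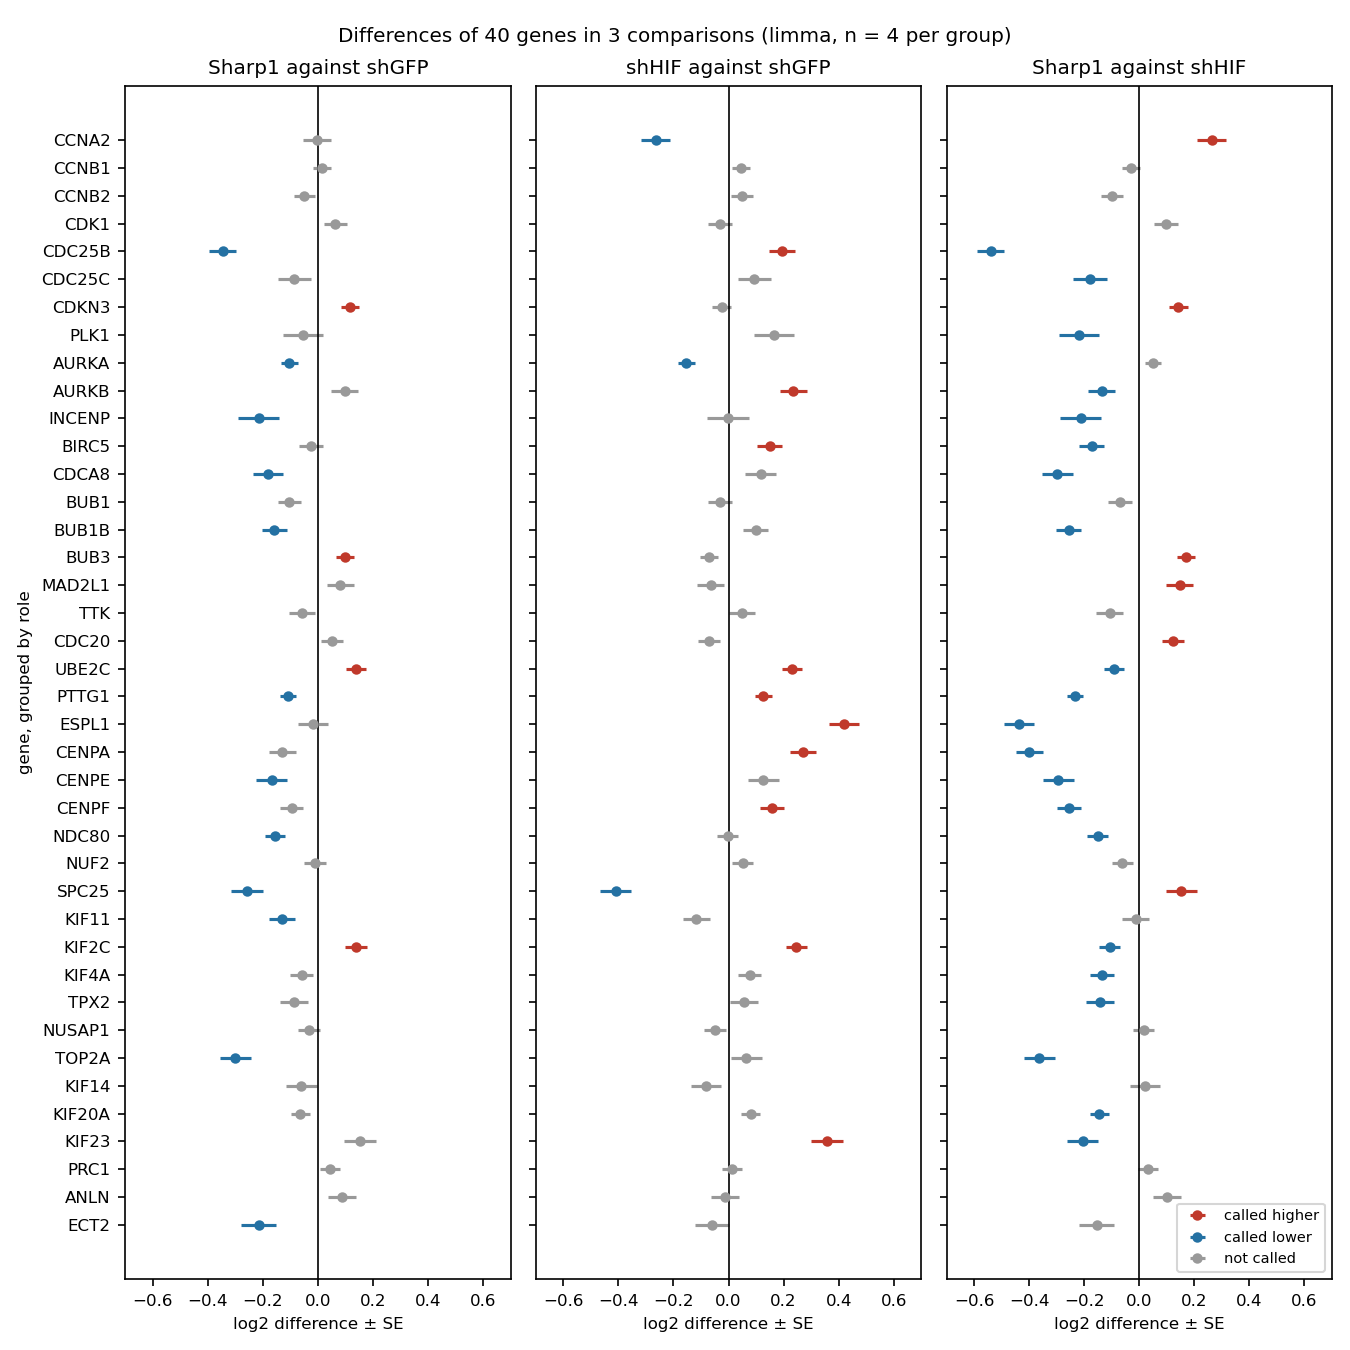
Log2 difference ± SE (horizontal axes) of each of the 40 genes (rows, ordered by role) in Sharp1 against shGFP, shHIF against shGFP and Sharp1 against shHIF cells, coloured by the limma call. The left panel holds 4 called higher and 12 called lower, the middle panel 10 and 3, and the right panel 6 and 21.

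The direct comparison tests whether the mitotic genes differ between Sharp1 and shHIF cells. Of the 40, 21 were lower in Sharp1 than in shHIF cells, 6 were higher and 13 were not called, which is 67.5% of the members, against 38.4% of all genes (18% higher, 20.4% lower) and 61.3% of genes in the same range of readings (31.6% higher, 29.7% lower). The median was -0.12 over the members and -0.06 over all genes. Centring the arrays gave 7 higher and 13 lower, and leaving out shHIF A and D gave 4 and 16. CDC25B led, lower by 0.54 (SE 0.05, limma adjusted p = 1.23e-09), or 1.45-fold. ESPL1 was lower by 0.44 (adjusted p = 4.02e-07), CENPA by 0.40 (2.43e-07), TOP2A by 0.36 (8.25e-06) and PTTG1 by 0.23 (4.36e-07).

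CDCA8, CENPE and BUB1B were lower in Sharp1 than in shHIF cells by 0.30, 0.29 and 0.26, and their arrays did not overlap. Of the members, 19 of 40 had separate arrays in this comparison, 15 lower and 4 higher in Sharp1, where 35.4% of all genes were separate. Of the 6 called higher in Sharp1 cells, BUB3 (0.17), CDKN3 (0.14) and CCNA2 on its brighter probe set (0.26, against -0.53 on the other) had separate arrays. SPC25 (0.15), MAD2L1 (0.15) and CDC20 (0.12) overlapped between the groups. AURKA was also separate and higher in Sharp1, but its difference of 0.05 was not called (limma adjusted p = 0.21). KIF23 was also read both ways, at -0.21 and 0.21 on its 2 probe sets. MAD2L1 read 11.74, 11.66, 11.76 and 11.65 in Sharp1 cells and 11.58, 11.57, 11.71 and 11.37 in shHIF cells. CDC20 read 12.65, 12.74, 12.66 and 12.67 in Sharp1 cells and 12.52, 12.58, 12.46 and 12.67 in shHIF cells.

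Further lists of cell cycle genes are read against the shares called of all genes (27.2% in Sharp1 and 30.8% in shHIF against shGFP cells) and of genes in the range of the members (46.5% and 51%). Of 15 transcription factors and cofactors of G2/M genes, 4 rose and 3 fell in Sharp1 cells (46.67% called), and 5 rose and 4 fell in shHIF cells (60%). NFYA, the NF-Y subunit that contacts CCAAT, read 9.56, 9.41, 9.35 and 9.51 in Sharp1 cells, 10.03, 9.86, 9.96 and 10.02 in shHIF cells and 9.65, 9.75, 9.63 and 9.65 in shGFP cells. The 3 groups were separate, and it was lower by 0.22 in Sharp1 and higher by 0.30 in shHIF cells than in shGFP (limma adjusted p = 0.00243 and 7.35e-05). The call was made on 2 of 6 NFYA probe sets for Sharp1 and on 3 of 6 for shHIF cells. NFYB, another NF-Y subunit, went the other way, averaging 9.18 in Sharp1, 8.75 in shHIF and 9.03 in shGFP cells. It was higher in Sharp1 than in shHIF cells by 0.42 (limma adjusted p = 3.27e-07), so NF-Y did not move as a whole. MYBL2, the MuvB partner that turns on these genes, rose by 0.40 in shHIF cells, while LIN9, a MuvB subunit, and RBL1, a pocket protein, fell by 0.34 and 0.29. LIN37 and LIN52, other MuvB subunits, rose by 0.42 and 0.29 in Sharp1 cells, and RBBP4, a histone-binding MuvB subunit, fell by 0.34.

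Among 16 measured of 17 genes of the anaphase-promoting complex and its inhibitors, 3 rose and 2 fell in Sharp1 cells and 3 rose and 2 fell in shHIF cells (31.25% called in each), near the shares of all genes. ANAPC13, a small subunit of the complex, read 9.92, 10.04, 10.00 and 9.97 in Sharp1 cells, 11.42, 11.43, 11.45 and 11.34 in shHIF cells and 11.37, 11.37, 11.35 and 11.47 in shGFP cells. All Sharp1 arrays were far below the others, a fall of 1.41 (limma adjusted p = 8.44e-19), which left 37.7% of the shGFP signal and is larger than any change of a member. Its dim second probe set differed by -0.21 and was not called. CDC16, another subunit, rose by 0.51 in Sharp1 cells and fell by 0.29 in shHIF cells, and its 3 probe sets were called the same way in each comparison.

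Of 20 condensin and cohesin genes, 3 rose and 9 fell in Sharp1 cells (60% called), and 3 rose and 5 fell in shHIF cells (40%). PDS5A, which controls cohesin on chromatin, fell by 0.62 in Sharp1 and 0.27 in shHIF cells, with a call on 4 of 4 probe sets in Sharp1 and on 2 of 4 in shHIF cells. Of 29 measured further kinetochore genes (of 30), 8 rose and 5 fell in Sharp1 cells (44.83% called) and 4 rose and 7 fell in shHIF cells (37.93%). KNL1, the scaffold that recruits BUB proteins, and DSN1, of the MIS12 complex, fell by 0.76 and 0.55 in shHIF cells, KNL1 on 3 of 4 probe sets. CENPM, a constitutive centromere protein, fell by 0.37 in Sharp1 cells and rose by 0.43 in shHIF cells. CENPT and CENPI, of the same list, rose in Sharp1 cells by 0.48 and 0.41. Of 27 measured further spindle and cytokinesis genes (of 28), 2 rose and 9 fell in Sharp1 cells (40.74% called) and 7 rose and 2 fell in shHIF cells (33.33%). TROAP, a spindle-associated protein, fell by 0.53 in Sharp1 cells and rose by 0.36 in shHIF cells on its brighter probe set. Its other probe set was not called in either. HMMR, a spindle protein, rose by 0.36 in shHIF cells. PIMREG and FAM83D rose in Sharp1 cells, by 0.33 and 0.14.

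Of 12 controllers of mitotic entry and of the G2 checkpoint, 1 rose and 2 fell in Sharp1 cells (25% called), and 7 rose and 2 fell in shHIF cells (75%), against 27.2% and 30.8% of all genes. ARPP19, whose phosphorylated form inhibits the phosphatase that opposes CDK1, fell by 0.75 in shHIF cells (limma adjusted p = 2.76e-14), and the call was made on 2 of its 3 probe sets. For ENSA, which acts the same way, the brightest probe set fell by 0.59 in shHIF cells while 2 of the other 4 rose, by 0.27 and 0.72, so no direction is given. CDC25A, a CDC25 phosphatase that also acts at entry into S phase, rose by 0.53 on its brightest probe set, and all 3 were called higher. GADD45A, a stress-induced inhibitor of G2 progression, rose by 0.84 in Sharp1 and 0.49 in shHIF cells. BORA, an activator of Aurora A, fell by 0.24 in Sharp1 cells and averaged 9.66 in shHIF against 9.40 in shGFP cells. CDKN1A, of the same list, also fell in Sharp1 cells, by 0.20 (limma adjusted p = 0.0063). It averaged 9.02 in shHIF against 8.84 in shGFP cells. Among 19 replication and G1/S genes, 6 rose and 6 fell in Sharp1 cells (63.16% called) and 4 rose and 5 fell in shHIF cells (47.37%). CCNE1, cyclin E1, rose by 1.29 in shHIF and 0.36 in Sharp1 cells on its brighter probe set, and RRM1, a subunit of ribonucleotide reductase, fell by 0.76 in shHIF cells. These lists were chosen with earlier results of these data known.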

How the data were processed

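RNA of 12 cultures of MDA-MB-231 cells was measured on Affymetrix arrays. The deposited values are log2 expression per probe set after RMA, per the submitters' processing notes, with the version not given in the sources used here. Arrays were grouped by their labels. Of 54675 probe sets, 41097 had 1 gene symbol. The 1801 with several symbols and the 11777 not named here were left out of the gene fit, and 1 probe set per gene, the brightest over the 12 arrays, stood for each of 19775 genes. The 3 comparisons were fitted with limma 3.58.1 in R 4.3.3 (a mean per group over all 12 arrays, eBayes with a trend) and adjusted by Benjamini-Hochberg over all genes, and a second fit covered every probe set but 62 controls. The fit was tested on simulated data. Values by array are given, per comparison, for the 8 called members that rose most and the 8 that fell most (fewer where fewer were called), for members called in both comparisons against shGFP and for those with opposed probe sets. Of the other lists, up to 2 called genes per direction and comparison could be named. CCNB1 and NDC80 were added after their values were seen. Members and lists were chosen with earlier results of these data known. Alternatives covered left-out arrays, scaling, choice of probe set, trend, array weights and a replicate block. The number of arrays limits the precision.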

Additional observations from a re-analysis of the deposited data

Results flagged for a closer look

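In 8 of 120 sets of 4 arrays of a member, 1 array lay far from the other 3 (6.667%, where chance gives about 5%). CDC25B read 11.13 on shHIF D, against 10.93 to 10.94 on the other shHIF arrays. KIF23 read 10.25 on shHIF D, against 10.53 to 10.55. AURKB read 10.37 on shHIF C, against 10.53 to 10.54. UBE2C read 13.06 on Sharp1 B, against 12.95 to 12.96 on the other Sharp1 arrays, PRC1 read 12.04 there, against 11.89 to 11.90, and TPX2 read 11.32, against 11.58 to 11.63. CDC25C read 8.81 on shGFP D, against 8.57 to 8.60 on the other shGFP arrays, and ESPL1 read 9.87 there, against 9.72 to 9.74. Sharp1 B also had the lowest ribosomal RNA control signal (10.7), and shHIF D a low spike-in signal (10.02), whose part in these readings was not tested.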

How the results depend on the processing

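Under 23 alternatives, 3 of 16 called members were called in every one in Sharp1 against shGFP cells, 9 of 13 in shHIF against shGFP cells and 12 of 27 in Sharp1 against shHIF cells. Leaving out 1 array gave 3 to 5 members higher and 9 to 13 lower in Sharp1 against shGFP, 10 to 11 and 3 to 5 in shHIF against shGFP, and 4 to 7 and 17 to 22 in Sharp1 against shHIF. Without the trend, 0 were higher and 5 lower in Sharp1 against shGFP and 3 were higher in Sharp1 against shHIF. Centring left 6 lower in Sharp1 against shGFP and 13 lower in Sharp1 against shHIF. In shHIF against shGFP, 5 were lower without shHIF D, with the mean of all probe sets and with the brightest unique-type probe set. With the mean of probe sets, CCNA2 turned to 0.10 in shHIF against shGFP and -0.14 in Sharp1 against shHIF, and KIF23 to 0.0017 in the second. With unique-type probe sets, CENPF turned to -0.16 and KIF23 to -0.033 in shHIF against shGFP, and to 0.085 and 0.21 in Sharp1 against shHIF. The unique-type probe set of CENPF averaged 5.30, under the median probe set of 5.41. These settings read other probe sets, and the cause was not tested. The array letters did not pair the samples. After each gene's group mean was subtracted, same-letter arrays of different groups correlated at -0.18 to 0.14. A replicate block gave 4 higher and 11 lower, 11 and 3, and 6 and 21 in the 3 comparisons.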
